A study of Mus musculus with 27 samples.

Results

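Kdm6a, Ddx3x, Eif2s3x and Utp14a are 4 X-linked mouse genes, grouped here as escape genes, out of 276 X-linked genes with an allelic ratio in this series. The genes were taken by name, with no threshold on their values although earlier results of these data were known, and all 4 have a value in each of 23 libraries. Silencing of 1 X chromosome in female mammals starts when the long noncoding RNA Xist coats that chromosome in cis. Most genes on the coated X are then shut down, while a minority, called escape genes, stay partly transcribed from it. Kdm6a encodes UTX, a demethylase of lysine 27 of histone H3, and is known as an escape gene in mouse and human. Ddx3x encodes a DEAD-box RNA helicase with roles in translation. Eif2s3x encodes the gamma subunit of translation initiation factor eIF2, which brings the initiator tRNA to the ribosome. Utp14a encodes a component of the small-subunit processome, which matures ribosomal RNA in the nucleolus. Kdm6a, Ddx3x and Eif2s3x each also have a partner gene on the Y chromosome.

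Chromatin-associated RNA, which is rich in transcripts still being made, was sequenced from female ES cells of a 129S X Cast background. In all of these lines the promoter of the 129S copy of Xist had been exchanged for a doxycycline-responsive TetOn promoter, and a Bgl stem-loop array had been added at the 3' end of Xist. The sample names add BglHalo for the WT (10H), SpenKO and CIZ1 KO lines but not for SPOCmut, and whether SPOCmut differs from WT in that respect is not given in the sources used here. The lines were SpenKO (called SpenRRM in the series text), sampled at 0 h (2 libraries), 3 h (1) and 24 h (2) of doxycycline, and SPOCmut, with 3 clones (C10, C2 and G1) at 0 h and 24 h. CIZ1 KO cells had 2 libraries at 0 h, 2 at 24 h and 1 as neural precursor cells (NPC) at day 30. The WT line had 2 libraries at each of 0 h, 3 h and 24 h and 1 as NPC at day 30. SPEN is a repressor that binds Xist RNA, and its SPOC domain contacts corepressors. CIZ1 is a nuclear matrix protein that associates with Xist RNA. Doxycycline was added at 1.0 to 1.5 µg/mL, and the ES cells grew on mouse fibroblast feeders, whose strain is not given in the sources used here and whose part in the ratios was not tested. Several clones are labelled for SPOCmut only, so a difference between lines may belong to the line or to the genotype, which cannot be told apart. Apart from those clones, no label ties replicates to separate cultures, so p-values here reflect the variation from library to library, which may be only technical. Whether the NPC received doxycycline is not given in the sources used here. The tables hold X-linked genes, so NPC identity and the targeted genes Spen and Ciz1 were not checked.

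The deposited value is an allelic ratio from 0 to 1, read here as the part of the allele-assigned RNA of a gene that came from the 129S X, where 0.5 means equal RNA from both X chromosomes. Which allele is the numerator is not given in the sources. The reading rests on Xist, whose ratio lay between 0.933 and 0.999 in all libraries, and on the label that puts the inducible Xist on 129S. A lower ratio can mean less RNA from the 129S X or more from the Cast X, and these cannot be told apart. Read depth is unknown. The median X gene had a ratio of 0.298 at 24 h in WT against 0.509 at 0 h, and in SPOCmut 0.446 against 0.517. In NPC the median was 0.0830 in CIZ1 KO and 0.0546 in WT. A change is 1 group mean minus another, with its standard error (SE) from limma over all genes of a table, and was called at a Benjamini-Hochberg adjusted p under 0.05 over that table.

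All coordinates are mm10 on chromosome X. Kdm6a lies at 18162666 to 18279358 on the plus strand, 85.3 Mb from Xist between gene midpoints. Ddx3x lies at 13281021 to 13293983 (plus strand), 90.2 Mb from Xist. Utp14a lies at 48256933 to 48282449 (plus strand), 55.2 Mb from Xist. Eif2s3x, at 94188708 to 94212651 on the minus strand, is the nearest to Xist, at 9.27 Mb. In the GENCODE annotation no other gene overlaps Kdm6a, Ddx3x or Eif2s3x, and 1 antisense noncoding gene, 9530027J09Rik, overlaps Utp14a. The strand setting of the counting is not given in the sources used here, so the Utp14a value may include that gene. Ddx3x and Utp14a also have autosomal retrogene copies in mouse (D1Pas1 and Utp14b), and how reads shared with copies were counted is not given either.

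Because the 4 genes all fell less than the median gene in WT cells, as described below, the 250 bases before each RefSeq start site are shown, 5′ to 3′ along the gene (GRCm38.p6, the build that mm10 names), with CpG dinucleotides, the sites of DNA methylation, in capitals.
Kdm6a, chrX:18162325-18162574, plus strand: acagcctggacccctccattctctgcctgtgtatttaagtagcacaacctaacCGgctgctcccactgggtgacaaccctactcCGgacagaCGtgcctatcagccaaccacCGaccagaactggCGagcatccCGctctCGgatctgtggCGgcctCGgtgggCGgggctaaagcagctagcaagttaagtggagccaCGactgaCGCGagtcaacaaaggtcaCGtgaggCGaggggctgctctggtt
Ddx3x, chrX:13280772-13281021, plus strand: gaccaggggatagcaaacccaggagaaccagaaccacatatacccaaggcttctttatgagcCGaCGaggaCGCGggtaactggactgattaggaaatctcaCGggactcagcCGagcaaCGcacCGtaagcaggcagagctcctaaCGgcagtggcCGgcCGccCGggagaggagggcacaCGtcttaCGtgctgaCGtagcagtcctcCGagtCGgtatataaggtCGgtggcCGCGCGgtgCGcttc
Eif2s3x, chrX:94212652-94212901, minus strand: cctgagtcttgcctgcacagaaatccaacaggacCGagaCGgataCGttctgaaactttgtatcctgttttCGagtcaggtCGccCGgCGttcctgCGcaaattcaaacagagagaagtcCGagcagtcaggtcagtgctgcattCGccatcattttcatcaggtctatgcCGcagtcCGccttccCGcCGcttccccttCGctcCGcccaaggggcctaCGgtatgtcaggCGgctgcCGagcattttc
Utp14a, chrX:48256684-48256933, plus strand: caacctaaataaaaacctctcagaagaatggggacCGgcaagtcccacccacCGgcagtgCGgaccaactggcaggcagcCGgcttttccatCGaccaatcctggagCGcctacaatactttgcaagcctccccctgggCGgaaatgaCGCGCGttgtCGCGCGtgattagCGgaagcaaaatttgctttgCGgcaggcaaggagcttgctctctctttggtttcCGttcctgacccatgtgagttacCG
In the GENCODE annotation Ddx3x begins at 13280970, Utp14a at 48256862 and, on the minus strand, Eif2s3x at 94212862. These positions lie inside the windows, so part of each of these windows is within the annotated gene. For Eif2s3x most of the window is, and for Kdm6a none of it is. The windows hold 15 CpG in Kdm6a, 22 in Ddx3x, 19 in Eif2s3x and 17 in Utp14a. The median over 1223 X-chromosome windows of the same length was 5, with quartiles at 2 and 12. Of those windows, 18.6% held at least as many CpG as Kdm6a, 13.7% as Utp14a, 10.1% as Eif2s3x and 6.54% as Ddx3x. All 4 are thus CpG-rich against these windows, which cover 1046 genes and so include many X genes not measured here. They were not compared with the measured genes alone, and a link between CpG count and the smaller fall was not tested. The letters CCATNTT, the core of the YY1 motif, searched on both strands with overlaps allowed, were not found in these 4 windows and were found in 15.9% of all X windows. DNA methylation and factor binding were not measured.

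After 24 h of doxycycline in WT cells, all 4 genes had a lower 129S share, with a change of -0.0291 in Kdm6a, -0.0804 in Eif2s3x, -0.0988 in Utp14a and -0.156 in Ddx3x. The median X gene fell by 0.197. Kdm6a and Utp14a had ratios above 0.5 at 24 h, as they did at 0 h. All of them fell (4 of 4 by limma), in a background where 88.9% of 270 genes fell.

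Kdm6a had 0.526 and 0.527 in the WT libraries at 24 h, against 0.553 and 0.558 at 0 h. The 2 times did not overlap, and Kdm6a fell by 0.0291 ± 0.00868 (SE, limma adjusted p = 0.00871). This call was lost with only the libraries compared in the fit (adjusted p = 0.141) and with Benjamini-Yekutieli adjustment (adjusted p = 0.0538). Counted from the smallest change in size, Kdm6a was 7th of 270 genes, Eif2s3x 24th, Utp14a 35th and Ddx3x 83rd. As a ratio of 129S to Cast RNA, Kdm6a stood at 1.11 at 24 h and 1.25 at 0 h, a quotient of 0.889, where the median gene had a quotient of 0.418.

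Utp14a started with the highest 129S share of the 4. It had 0.523 and 0.515 at 24 h in WT, against 0.607 and 0.628 at 0 h, and fell by 0.0988 ± 0.0101 (limma adjusted p = 4.18e-06). The 24 h libraries were apart from those at 0 h. The 129S to Cast ratio was 1.08 at 24 h and 1.62 at 0 h, a quotient of 0.668.

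Eif2s3x had 0.381 and 0.401 at 24 h in WT, against 0.474 and 0.468 at 0 h. The groups did not overlap, and Eif2s3x fell by 0.0804 ± 0.0163 (limma adjusted p = 0.000779). Its 129S to Cast quotient was 0.720, so by this measure it lay between Kdm6a and Utp14a.

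Ddx3x lost the largest share among the 4 genes. It had 0.351 and 0.346 at 24 h in WT, against 0.502 and 0.508 at 0 h, with no overlap, and fell by 0.156 ± 0.0119 (limma adjusted p = 4.22e-07). The 129S to Cast quotient was 0.524. The sizes of the falls were not tested against each other. Their 95% intervals ran from -0.183 to -0.130 in Ddx3x and from -0.0483 to -0.00988 in Kdm6a, without overlap. Those of Eif2s3x (-0.117 to -0.0443) and Utp14a (-0.121 to -0.0764) overlapped, as did those of Kdm6a and Eif2s3x.

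**Figure D1:**
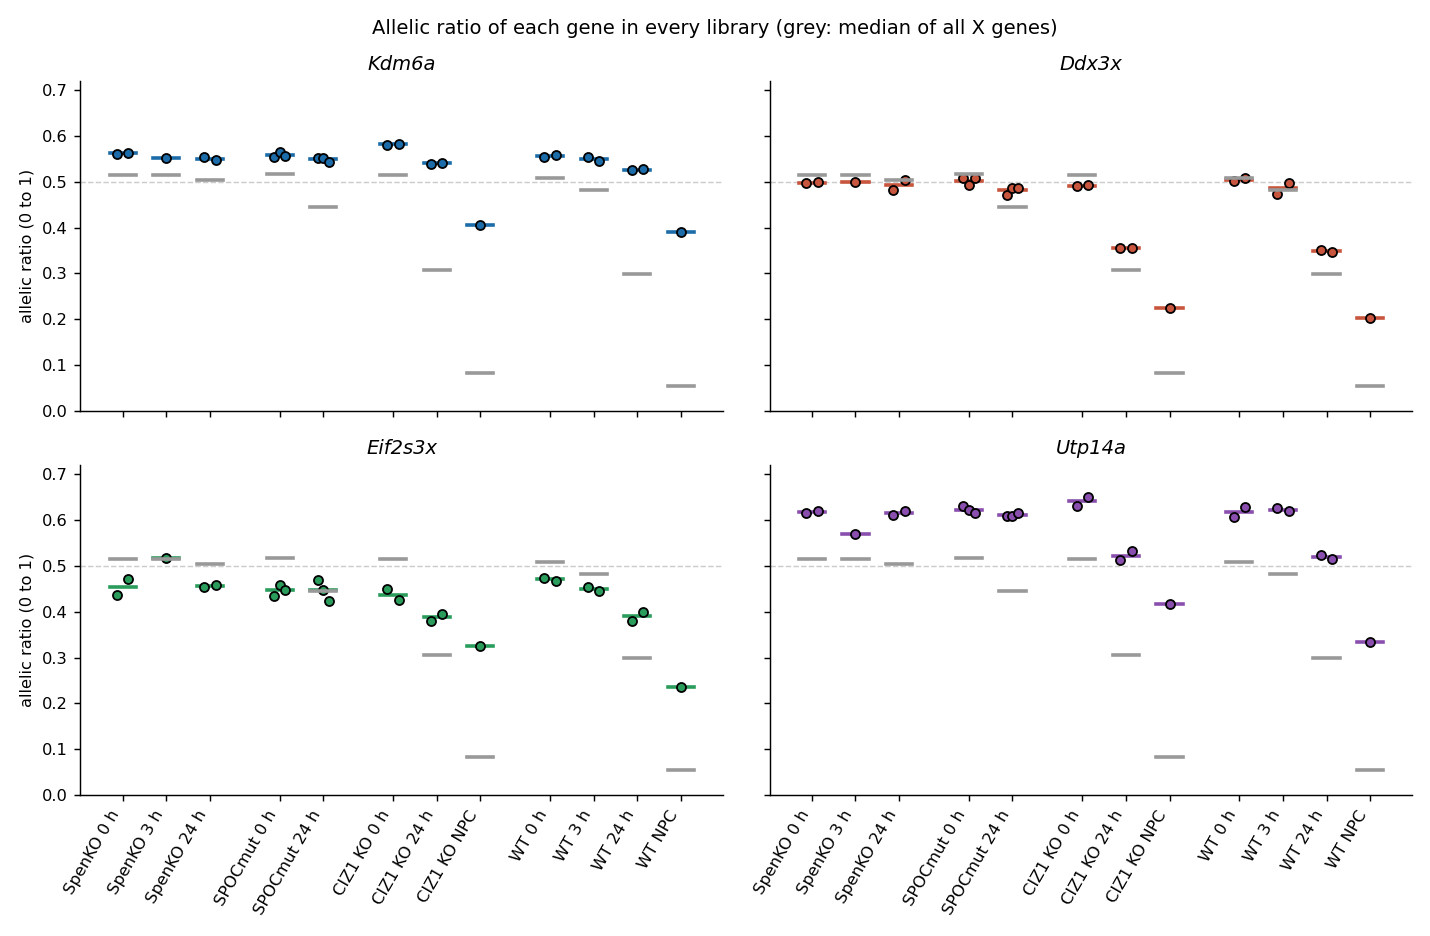
Each panel plots the allelic ratio (vertical axis, 0 to 1) of 1 gene in every library (points) by line and time, with the group mean as a coloured bar and the mean library median over all X genes as a grey bar. The coloured bars stay above the grey ones at 24 h and in NPC in CIZ1 KO and WT, and lie lowest in WT NPC, at 0.390 for Kdm6a and 0.203 for Ddx3x.

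The 3 h time point asked whether these genes respond early. Kdm6a had 0.555 and 0.546 in WT at 3 h, Ddx3x 0.474 and 0.498, Eif2s3x 0.454 and 0.445, and Utp14a 0.626 and 0.620. The 3 h libraries of Utp14a and Kdm6a overlapped those at 0 h, while those of Ddx3x and Eif2s3x lay below them. None of the 4 genes passed limma at 3 h, with 0 of 4 at an unadjusted p under 0.05 too, where 22.2% of all genes were called in either direction. With only the libraries compared in the fit, 2 of 270 genes were called, against 60 with all libraries. The 95% intervals ran from -0.0242 to 0.0142 for Kdm6a, -0.0450 to 0.00749 for Ddx3x, -0.0578 to 0.0144 for Eif2s3x and -0.0171 to 0.0275 for Utp14a. From 3 h to 24 h all 4 fell, with 85.6% of genes lower. The changes were -0.0240 ± 0.00868 in Kdm6a (limma adjusted p = 0.0227), -0.0587 ± 0.0163 in Eif2s3x (adjusted p = 0.00607), -0.104 ± 0.0101 in Utp14a (adjusted p = 3.29e-06) and -0.138 ± 0.0119 in Ddx3x (adjusted p = 1.43e-06). The Kdm6a call was lost with a replicate block (adjusted p = 0.0671), with only the libraries compared (0.206) and with Benjamini-Yekutieli adjustment (0.140). It was also lost without WT replicate 1 at 3 h (adjusted p = 0.115), without WT replicate 1 at 24 h (0.0666) and without WT replicate 2 at 24 h (0.0573).

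In CIZ1 KO cells the same 4 genes fell at 24 h (4 of 4 by limma, against 85.0% of 254 genes). Kdm6a had 0.540 and 0.541 at 24 h in CIZ1 KO, against 0.581 and 0.582 at 0 h, a change of -0.0413 ± 0.0138 (adjusted p = 0.0313). Ddx3x had 0.356 in both libraries at 24 h, against 0.490 and 0.492 at 0 h, a change of -0.135 ± 0.0140 (adjusted p = 0.000289). These 2 genes had closely spaced replicates and no overlap between times. Eif2s3x had 0.379 and 0.396 at 24 h in CIZ1 KO, against 0.449 and 0.426 at 0 h, a change of -0.0499 ± 0.0172 (adjusted p = 0.0343). Utp14a had 0.512 and 0.532 at 24 h, against 0.631 and 0.650 at 0 h, a change of -0.119 ± 0.0173 (adjusted p = 0.00111). The groups of both genes were also apart. The calls of Kdm6a and Eif2s3x were lost with a replicate block (adjusted p = 0.0841 and 0.0870), with only the libraries compared (0.0703 and 0.0738) and with Benjamini-Yekutieli adjustment (0.191 and 0.210), and that of Kdm6a when any 1 of the 4 CIZ1 KO libraries was left out (adjusted p from 0.0800 to 0.0939). Eif2s3x lost its call without replicate 1 at 0 h (adjusted p = 0.144), replicate 1 at 24 h (0.133) or replicate 2 at 24 h (0.0563).

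The 24 h changes of CIZ1 KO and WT were then set against each other. In limma 0 of 4 genes differed (0 of 4 at an unadjusted p under 0.05), and the background was 0% of 254 genes, with 11 at an unadjusted p under 0.05. The difference, CIZ1 KO change minus WT change, was -0.0122 for Kdm6a (95% interval -0.0604 to 0.0361), 0.0211 for Ddx3x (-0.0276 to 0.0697), 0.0305 for Eif2s3x (-0.0296 to 0.0906) and -0.0198 for Utp14a (-0.0800 to 0.0404). These intervals do not show that the lines respond alike: those of Eif2s3x and Kdm6a allow a difference larger than the whole WT fall of the gene.

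In SpenKO cells none of the 4 genes changed at 24 h (0 of 4 by limma, 0 of 4 at an unadjusted p under 0.05), where 0.741% of genes were called. Kdm6a had 0.554 and 0.547 at 24 h in SpenKO, against 0.561 and 0.564 at 0 h. Ddx3x had 0.482 and 0.503 at 24 h, against 0.497 and 0.499. Eif2s3x had 0.454 and 0.458 at 24 h, against 0.437 and 0.473 at 0 h. Utp14a had 0.612 and 0.620 at 24 h, against 0.617 and 0.619. The times overlapped in Ddx3x, Eif2s3x and Utp14a, and were apart in Kdm6a. The changes were -0.0118 (95% interval -0.0310 to 0.00742) in Kdm6a, -0.00560 (-0.0319 to 0.0207) in Ddx3x, 0.00105 (-0.0351 to 0.0372) in Eif2s3x and -0.00176 (-0.0241 to 0.0206) in Utp14a.

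In SPOCmut cells none of the 4 passed the test either (0 of 4 by limma, 0 of 4 at an unadjusted p under 0.05), although 49.6% of genes fell in that line. In the order of clones C10, C2 and G1, Kdm6a had 0.552, 0.551 and 0.543 at 24 h, against 0.555, 0.564 and 0.557 at 0 h. Ddx3x had 0.472, 0.486 and 0.487 at 24 h, against 0.508, 0.492 and 0.507. Both genes had all treated libraries below all untreated ones, by a narrow margin. Their changes were -0.0100 (95% interval -0.0257 to 0.00566) in Kdm6a and -0.0212 (-0.0427 to 0.000219, adjusted p = 0.0933) in Ddx3x. Eif2s3x had 0.469, 0.448 and 0.423 at 24 h in SPOCmut, against 0.436, 0.458 and 0.448 at 0 h, a change of -0.000360 (-0.0299 to 0.0291). It was higher at 24 h in clone C10 and lower in C2 and G1. Utp14a had 0.610, 0.610 and 0.615 at 24 h, against 0.632, 0.622 and 0.616, a change of -0.0114 (-0.0297 to 0.00677). Its libraries at the 2 times were also apart, by a margin narrower than in Kdm6a or Ddx3x.

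Differences between lines were tested on the 24 h change itself. The SpenKO change minus the WT change was called in 3 of 4 genes, all higher, where 76.7% of genes were higher. It was 0.151 ± 0.0168 for Ddx3x (limma adjusted p = 1.72e-05), 0.0970 ± 0.0143 for Utp14a (adjusted p = 0.000131) and 0.0815 ± 0.0231 for Eif2s3x (adjusted p = 0.00789). Kdm6a, which moved least in WT, had a difference of 0.0173 ± 0.0123 that did not pass (adjusted p = 0.210). The SPOCmut change minus the WT change, against the same WT libraries, was likewise called in 3 of 4 genes, all higher, where 58.5% of genes were higher. It was 0.135 ± 0.0153 for Ddx3x (adjusted p = 4.83e-05), 0.0873 ± 0.0130 for Utp14a (adjusted p = 0.000250) and 0.0801 ± 0.0211 for Eif2s3x (adjusted p = 0.00707). For Kdm6a it was 0.0191 ± 0.0112 (adjusted p = 0.165). The SPOCmut and SpenKO changes did not differ detectably in any of the 4 (0 of 4 by limma, 0 of 4 at an unadjusted p under 0.05), while 23.0% of genes differed (62 genes, and 34 with Benjamini-Yekutieli adjustment). The intervals of this difference ran from -0.0495 to 0.0183 in Ddx3x, -0.0230 to 0.0266 in Kdm6a, -0.0480 to 0.0452 in Eif2s3x and -0.0385 to 0.0191 in Utp14a.

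**Figure D2:**
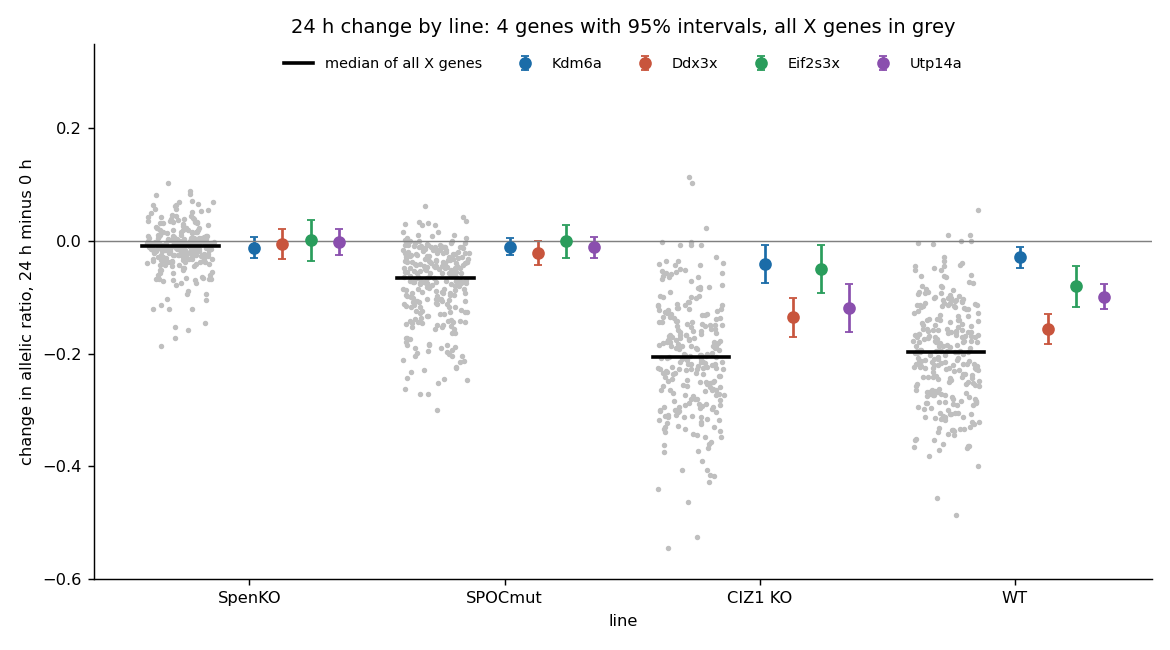
The plot gives the change in allelic ratio from 0 h to 24 h (vertical axis) in each line, with the 4 genes as coloured points with 95% intervals from limma, all X genes as grey points and their median as a black bar. In SpenKO and SPOCmut the 4 genes sit near 0, and in CIZ1 KO and WT they fall, but each lies above the median, which is -0.207 in CIZ1 KO and -0.197 in WT.

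The single SpenKO library at 3 h had 0.552 for Kdm6a, 0.499 for Ddx3x, 0.517 for Eif2s3x and 0.569 for Utp14a. Its Eif2s3x value was above all other libraries of that gene, and its Utp14a value lay below both other SpenKO times. The 3 h change in SpenKO minus that in WT was 0.0843 ± 0.0258 for Eif2s3x (adjusted p = 0.107) and -0.0536 ± 0.0159 for Utp14a (adjusted p = 0.100). In limma 0 of 4 genes passed (2 of 4 at an unadjusted p under 0.05), where 2.59% of genes did (7 genes, and 0 with only the libraries compared), and the fit gives the lone library the spread of the replicated groups.

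Without doxycycline the lines did not differ detectably in these genes. In limma 0 of 4 were called for SpenKO against WT, for SPOCmut against WT and for CIZ1 KO against WT, with 0% of all genes called in each (22, 34 and 16 genes at an unadjusted p under 0.05, and 0 of 4 of these genes in each). The widest gaps were in CIZ1 KO, where Eif2s3x averaged 0.438 ± 0.0164, against 0.471 ± 0.00391 in WT, and Kdm6a 0.582 ± 0.00121, against 0.556 ± 0.00327 in WT (SD, n = 2 each; adjusted p = 0.666 for both). The 4 genes started from different levels. In WT at 0 h Utp14a averaged 0.618 ± 0.0149, Kdm6a 0.556 ± 0.00327, Ddx3x 0.505 ± 0.00398 and Eif2s3x 0.471 ± 0.00391 (SD, n = 2 each). The libraries of the 4 genes did not overlap in that group.

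Over the 12 groups, Kdm6a ran from 0.582 in CIZ1 KO at 0 h to 0.390 in WT NPC. Its groups from SpenKO at 0 h (0.562) down to SPOCmut at 24 h (0.549) were separated by at most 0.00135 or overlapped, and CIZ1 KO at 24 h (0.540), WT at 24 h (0.526), CIZ1 KO NPC (0.405) and WT NPC each stood apart from the group above. Ddx3x had 8 groups from 0.505 (WT at 0 h) down to 0.481 (SPOCmut at 24 h) in which each neighbour overlapped the next. Below a gap of 0.116 came CIZ1 KO at 24 h (0.356) and WT at 24 h (0.348), which were apart by 0.00486. Eif2s3x was highest in SpenKO at 3 h (0.517, 1 library), overlapped from neighbour to neighbour between SpenKO at 24 h (0.456) and CIZ1 KO at 0 h (0.438), and overlapped again between WT at 24 h (0.391) and CIZ1 KO at 24 h (0.388). Utp14a ran from 0.641 in CIZ1 KO at 0 h to 0.612 in SPOCmut at 24 h with overlaps or a gap of 0.000351, then to 0.569 in SpenKO at 3 h, and overlapped between CIZ1 KO at 24 h (0.522) and WT at 24 h (0.519).

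To set the 4 genes against the rest of the X, the library median over X genes was subtracted from every ratio and the fit repeated. A positive value then means a smaller fall than that of the median gene. At 24 h in WT all 4 were higher (4 of 4 by limma, against 23.3% of genes). The relative change was 0.182 ± 0.0119 for Kdm6a (adjusted p = 6.79e-07), 0.130 ± 0.0184 for Eif2s3x (0.000216), 0.112 ± 0.0130 for Utp14a (7.05e-05) and 0.0543 ± 0.0133 for Ddx3x (0.00736). The Ddx3x call was lost without WT replicate 1 at 0 h (adjusted p = 0.0558) and without WT replicate 1 at 24 h (0.0543). In CIZ1 KO all 4 were higher as well (against 18.1% of genes), with 0.167 ± 0.0153 for Kdm6a (adjusted p = 0.00140), 0.158 ± 0.0181 for Eif2s3x (0.00263), 0.0895 ± 0.0185 for Utp14a (0.0159) and 0.0727 ± 0.0157 for Ddx3x (0.0177). There the Ddx3x call was lost when any 1 of the 4 CIZ1 KO libraries was left out (adjusted p from 0.0504 to 0.0760) and with a replicate block (0.0583). That of Utp14a was lost without CIZ1 KO replicate 1 at 0 h (adjusted p = 0.0574), replicate 1 at 24 h (0.0548) or replicate 2 at 24 h (0.0788).

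In SPOCmut at 24 h the relative change was higher in 4 of 4 genes (against 16.3% of genes), between 0.0502 ± 0.0109 for Ddx3x (adjusted p = 0.00470) and 0.0711 ± 0.0150 for Eif2s3x (0.00408). Kdm6a and Utp14a had 0.0614 ± 0.00973 (adjusted p = 0.000695) and 0.0600 ± 0.0106 (0.00136). These genes thus fell short of the median change in the line where none of them moved detectably on its own. In SpenKO 0 of 4 differed from the median gene (0 of 4 at an unadjusted p under 0.05; 0.370% of genes), and in WT at 3 h 0 of 4 (1 of 4 at an unadjusted p under 0.05, Utp14a at 0.0315 ± 0.0130; 21.5% of genes in either direction).

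In NPC all 4 genes had a lower 129S share than in the 24 h ES cells, and all 4 remained far above the median gene. Kdm6a had 0.405 in CIZ1 KO NPC and 0.390 in WT NPC. Utp14a had 0.417 in CIZ1 KO NPC and 0.335 in WT NPC. Eif2s3x had 0.326 in CIZ1 KO NPC and 0.236 in WT NPC, and Ddx3x had 0.224 in CIZ1 KO NPC and 0.203 in WT NPC. Each of the 4 was higher in CIZ1 KO NPC, as was the median gene (0.0830 in CIZ1 KO and 0.0546 in WT), and with 1 library per line that difference has no replicate check. In CIZ1 KO NPC 57.1% of 254 genes had a ratio under 0.1, and in WT NPC 64.2%, while all 4 of these genes were above 0.1 in both. Ranked from the highest ratio, Utp14a was 6th, Kdm6a 7th, Eif2s3x 11th and Ddx3x 31st of 254 in CIZ1 KO NPC. In WT NPC Kdm6a was 6th, Utp14a 15th, Eif2s3x 34th and Ddx3x 41st. At 0 h in CIZ1 KO, among the same 254 genes, Utp14a was already 23rd and 33rd in its libraries and Kdm6a 43rd and 67th. Ddx3x was 159th and 165th there, and Eif2s3x 206th and 217th. In WT at 0 h, of 270 genes, Utp14a ranked 26.5 (tied) and 19, and Kdm6a 60 and 53. Ddx3x ranked 151 and 128 there, and Eif2s3x 194 and 185.

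**Figure D3:**
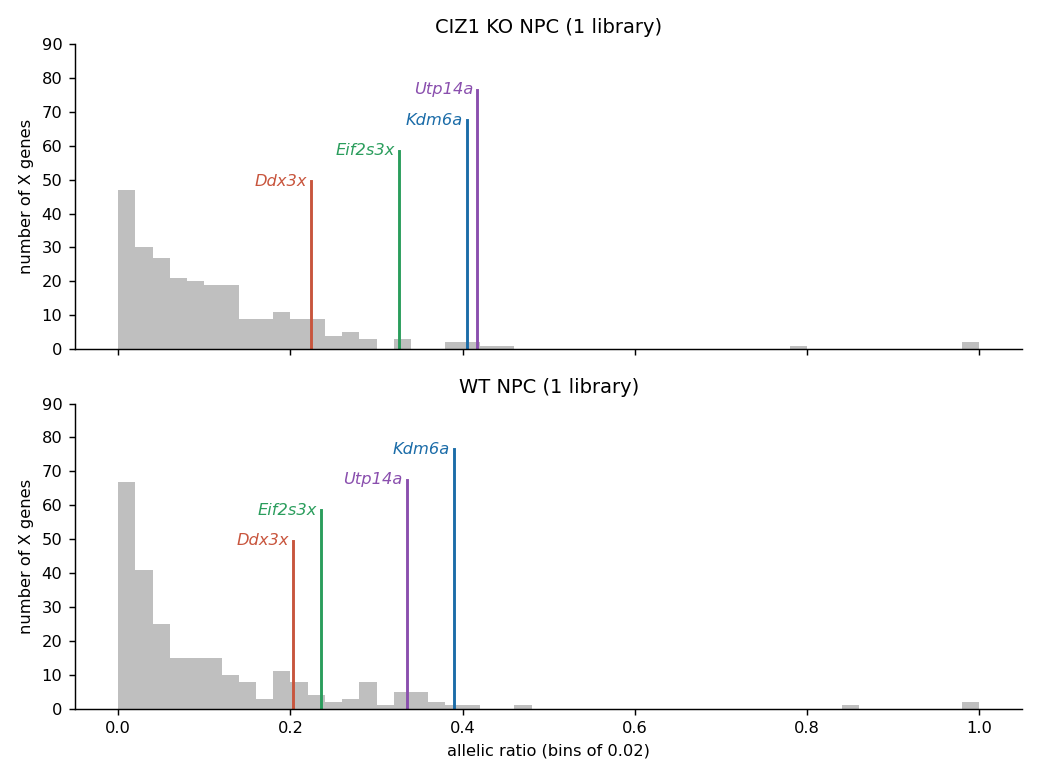
Histograms of the allelic ratio (horizontal axis) over 254 X genes (vertical axis, number of genes per bin of 0.02) in the CIZ1 KO and the WT NPC library, with coloured lines at the 4 genes, whose heights carry no value. Most genes lie below 0.1, and the 4 genes lie between 0.224 and 0.417 in CIZ1 KO and between 0.203 and 0.390 in WT.

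Averaged over both lines, NPC minus 24 h ES cells was -0.136 ± 0.0120 for Kdm6a (limma adjusted p = 0.000123), -0.138 ± 0.0121 for Ddx3x (0.000123), -0.145 ± 0.0150 for Utp14a (0.000228) and -0.108 ± 0.0149 for Eif2s3x (0.000776). All 4 fell, where 82.7% of genes were lower. Each lone NPC library is assumed in this fit to vary like the ES groups. By line, Kdm6a differed by -0.135 in CIZ1 KO and -0.137 in WT, and Eif2s3x by -0.0613 in CIZ1 KO and -0.155 in WT. Relative to the median gene all 4 were higher (against 28.3% of genes), between 0.0862 ± 0.0161 for Utp14a (adjusted p = 0.00844) and 0.123 ± 0.0156 for Eif2s3x (0.00238). In the WT line alone Utp14a was 0.0539 ± 0.0227 above the median gene (adjusted p = 0.129). In 129S to Cast terms, NPC against 0 h ES cells of the same line gave quotients of 0.490 in CIZ1 KO and 0.510 in WT for Kdm6a, 0.401 in CIZ1 KO and 0.312 in WT for Utp14a, 0.623 in CIZ1 KO and 0.346 in WT for Eif2s3x, and 0.300 in CIZ1 KO and 0.250 in WT for Ddx3x. The median gene had quotients of 0.0824 in CIZ1 KO and 0.0570 in WT. Of the 4 genes, Kdm6a had the narrowest gap between the lines and Eif2s3x the widest.

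The measured genes next to each of the 4 were looked up by gene midpoint. On either side of Utp14a, Zdhhc9, a palmitoyltransferase gene 79.4 kb away, changed by -0.146 at 24 h in WT, and Bcorl1, a corepressor gene 104 kb away, by -0.241. Both fell in limma (adjusted p = 4.01e-06 and 7.99e-06). Eif2s3x lies between Zfx, a zinc finger factor gene 102 kb away that changed by -0.198, and Klhl15, 44.8 kb away, that changed by -0.264 (adjusted p = 8.17e-07 and 4.87e-07). Within 1 Mb of Utp14a 11 of 11 measured genes had a more negative change than Utp14a, with a median of -0.249, and within 1 Mb of Eif2s3x 11 of 11 did, with a median of -0.238. Ddx3x did not stand out in this way. Its neighbours Usp9x, a deubiquitinase gene 165 kb away, and Cask, 394 kb away, changed by -0.166 and -0.127 (adjusted p = 5.69e-08 and 9.96e-06), and 4 of 7 genes within 1 Mb had a more negative change than its own. Around Kdm6a the nearest measured genes were Fundc1, a mitophagy receptor gene 657 kb away, at -0.0604 (adjusted p = 0.0601), and Chst7, a sulfotransferase gene 1858 kb away, at -0.168 (adjusted p = 0.0118). Within 1 Mb of Kdm6a only Fundc1 and Efhc2 were measured. Of these, 0 of 2 fell by the test, and 2 of 2 had a more negative change than Kdm6a. Efhc2, at -0.0349 (adjusted p = 0.349), lay close to the Kdm6a change of -0.0291. In WT NPC Zfx had 0.368, above Eif2s3x at 0.236, and Klhl15 had 0.0625. Kdm6a, at 0.390, lay above Fundc1 (0.195), Efhc2 (0.0488) and Chst7 (0.0267) in that library. Utp14a, at 0.335, lay above Zdhhc9 (0.239) and Bcorl1 (0.1875). Ddx3x, at 0.203, lay above Usp9x (0.128) and Cask (0.0271) but below Atp6ap2 (0.337) and 1810030O07Rik (0.258), both within 1 Mb. These comparisons between neighbours are descriptions and were not tested.

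**Figure D4:**
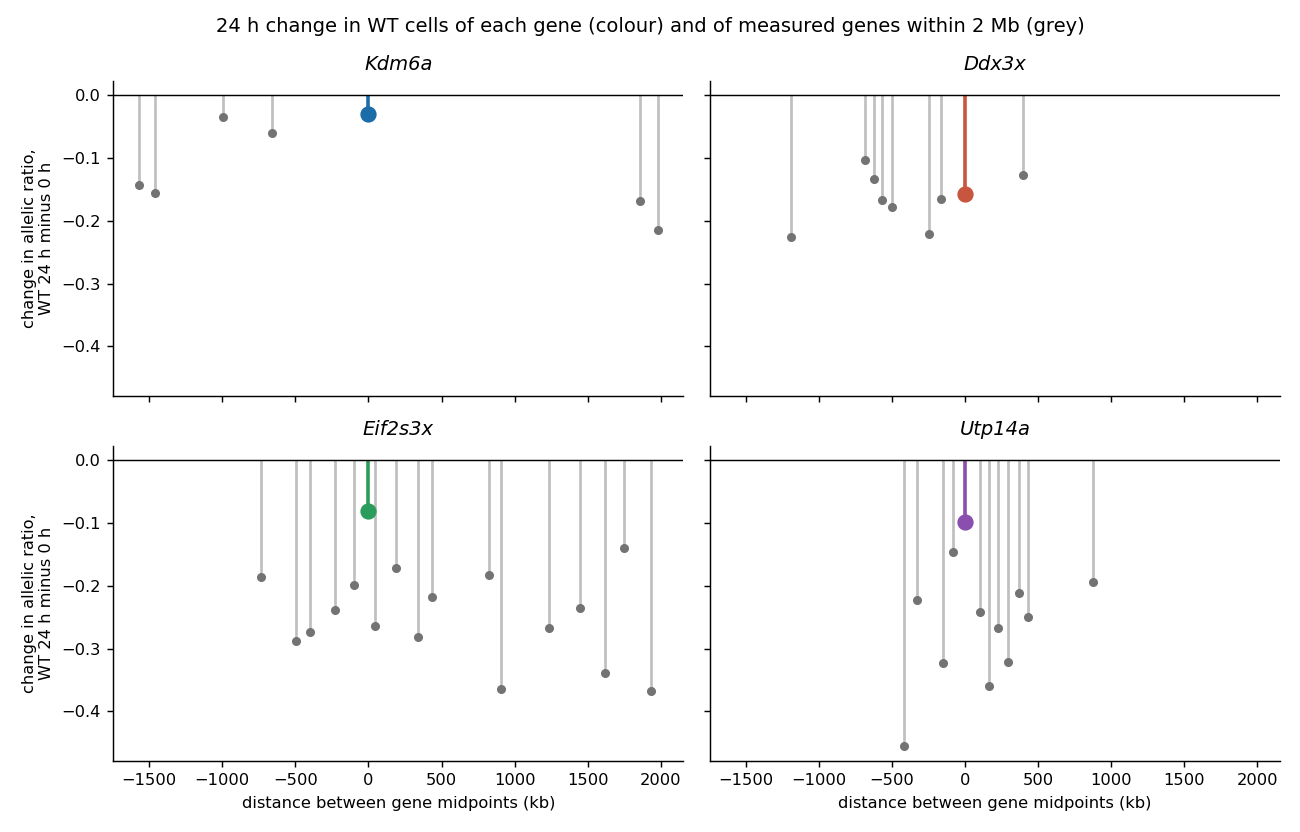
Each panel plots the 24 h change in allelic ratio in WT (vertical axis) of 1 gene (coloured) and of the measured genes within 2 Mb (grey) against the distance between gene midpoints in kb (horizontal axis). Utp14a, Eif2s3x and Kdm6a change less than each neighbour within 1 Mb, of which Kdm6a has 2. Ddx3x at -0.156 lies within the range of its neighbours.

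Likeness was measured as the root mean square difference of the ratio over the 12 group means, among 247 other genes with values in both tables. Ddx3x was closest to Rbm10, an RNA-binding splicing regulator gene, at 0.0151, followed by Lamp2 at 0.0300 and Fmr1 at 0.0301. Rbm10 had 0.375 at 24 h in WT against 0.514 at 0 h, and 0.227 in CIZ1 KO NPC and 0.191 in WT NPC, close to the Ddx3x values. Kdm6a was closest to Suv39h1, a histone H3 lysine 9 methyltransferase gene, at 0.0483, then Xk at 0.0499 and Utp14a at 0.0516. Suv39h1 had 0.496 at 24 h in WT against 0.541 at 0 h (adjusted p = 0.178), and 0.445 in CIZ1 KO NPC and 0.461 in WT NPC. Utp14a was closest to Kdm6a, then to 1810030O07Rik at 0.0552 and Xk at 0.0568. Eif2s3x was closest to Rpgr at 0.0459, Ddx3x at 0.0478 and Rbm10 at 0.0506. Kdm6a and Utp14a were thus each among the 3 genes most alike to the other, while for Ddx3x the gene Eif2s3x came 19th, Kdm6a 179th and Utp14a 209th of 247. By the mean absolute difference instead, Fundc1 was closest to Utp14a, at 0.0385, and Kdm6a came 3rd, at 0.0460. The 12 means come from libraries shared by all genes, and the ranks are a description.

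Other X genes with related roles were read from fixed lists, as counts and medians beside those of all genes. Over all 270 genes 240 (88.9%) fell at 24 h in WT and 134 (49.6%) in SPOCmut, so the WT counts below lie near that share. Of 13 further escape genes of the mouse, 3 were measured besides Xist, and 3 of 3 fell at 24 h in WT. Their changes were -0.133 in 1810030O07Rik, -0.175 in Shroom4 and -0.399 in the noncoding RNA gene Firre. In CIZ1 KO NPC these had 0.290, 0.0683 and 0.180, and in WT NPC 0.258, 0.160 and 0.156. Of 8 measured genes known as escape genes in human, 8 fell at 24 h in WT with a median change of -0.144, and 2 fell in SPOCmut. Of 4 measured genes with a Y partner, 4 fell in WT with a median of -0.182, and 2 fell in SPOCmut. Of 14 chromatin regulators 13 fell in WT, with a median of -0.226, the exception being Suv39h1, and 9 fell in SPOCmut. Of 12 genes of translation, ribosomes and RNA 12 fell in WT, with a median of -0.117, and 4 fell in SPOCmut. Over all genes the median was -0.197 in WT and -0.0658 in SPOCmut. A smaller fall than the median gene was called in WT in 23.3% of genes. It was also called in 8 of the 12 translation and RNA genes and 6 of the 8 human escape genes. The counts were 4 of 14 chromatin regulators, 2 of 4 genes with a Y partner and 1 of 3 further mouse escape genes. In SPOCmut (16.3% of genes) the counts in the same order were 4, 4, 5, 1 and 1. A larger fall than the median gene was called in WT (16.3% of genes) in 1, 0, 2, 1 and 1, in that order. For SPOCmut (17.8% of genes) these counts were 0, 0, 2, 0 and 1. In WT NPC the median level was 0.285 in the 4 genes and 0.160 in the 3 further mouse escape genes. It was 0.144 in the genes with a Y partner, where the highest, Zfx, had 0.368, and 0.139 in the human escape genes. The chromatin regulators had a median of 0.0687 and the translation and RNA genes 0.0608. The gene lists are small and share members, and nothing is read from them beyond these counts.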

How the data were processed

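Allelic ratios of chromatin-associated RNA were taken from the 2 deposited X tables, of 270 genes in 17 libraries and 254 genes in 10 libraries, which share 248 genes and 4 libraries with identical values. The values the authors deposited are a fraction, between 0 and 1, for each gene in each library. Per the submitters' processing notes the build was mm10 and the tools included STAR 2.4.2a, Bowtie2 2.3.2 and featureCounts, with no role given. The sources used here do not give the gene filters, strand setting or numerator. No read counts come with the ratios, so depth is unknown and no counting interval is given. Columns marked as doxycycline without a time were taken as 24 h. The 12 value columns of a chromosome 15 table hold none of these genes and were not used, and the 4 samples with transgenic Xist are not analysed here.

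Group means were compared with limma 3.58.1 in R 4.3.3 on untransformed ratios, 1 fit per table over its libraries, without a replicate block, and p-values were adjusted by Benjamini-Hochberg over the genes of that table. Line differences were interaction contrasts. The fit was also run on simulated ratios with starting levels kept in a middle range, unlike the low NPC ratios. No result here rests on that run. Beside the 4 genes, the text names the nearest measured gene on each side, the 3 genes most alike and members of fixed lists. Efhc2 and Atp6ap2 are named as further genes within 1 Mb. The genes and lists were chosen with earlier results of these data known. Per the labels, SPOCmut libraries with the same number come from the same clone. Their deviations from the group means correlated at -0.0170, -0.113 and 0.148 across 0 h and 24 h, and the replicate block changed no SPOCmut call of the 4 genes. Alternatives covered the logit scale, the libraries fitted, the block, the variance prior, the adjustment, the gene filter, the centre and each replicate left out.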

Additional observations from a re-analysis of the deposited data

Results flagged for a closer look

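The 24 h change of 3 of the 4 genes differed between lines in a test of the difference itself. The SpenKO change exceeded the WT change by 0.151 in Ddx3x, by 0.0970 in Utp14a and by 0.0815 in Eif2s3x. The SPOCmut change exceeded the WT change by 0.135 in Ddx3x, by 0.0873 in Utp14a and by 0.0801 in Eif2s3x. Over all 270 genes, 76.7% were called higher for SpenKO minus WT and 58.5% for SPOCmut minus WT. The count of 3 of 4 genes was not tested against these shares. Both sets of differences use the same WT libraries. Groups held at most 3 libraries, so single libraries were not examined as outliers.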

How the results depend on the processing

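Of 892 values of 84 results recomputed under other settings, 33 lost their call, in 8 results, and no called value changed sign. Kdm6a at 24 h against 0 h in WT (-0.0291) lost its call with only the libraries compared (adjusted p = 0.141) and with Benjamini-Yekutieli (0.0538). Kdm6a at 24 h against 3 h in WT (-0.0240) lost it with the replicate block (0.0671), only the libraries compared (0.206) and Benjamini-Yekutieli (0.140), and ranged from -0.0283 to -0.0197 with 1 replicate left out. In CIZ1 KO at 24 h, Kdm6a (-0.0413) and Eif2s3x (-0.0499) lost their calls with the replicate block (0.0841 and 0.0870), only the libraries compared (0.0703 and 0.0738) and Benjamini-Yekutieli (0.191 and 0.210), and Kdm6a also with a trend and robust prior (0.0797). With 1 replicate left out they ranged from -0.0421 to -0.0404 and from -0.0615 to -0.0383. Relative to the median gene, Ddx3x in CIZ1 KO (0.0727) lost its call with the replicate block (0.0583) and ranged from 0.0701 to 0.0754 with 1 replicate left out, Ddx3x in WT from 0.0449 to 0.0637, and Utp14a in CIZ1 KO from 0.0801 to 0.0989. Utp14a in NPC lost its call in the WT line alone, where its relative change was 0.0539 ± 0.0227 (SE). The cause was not tested.

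Calls over all genes moved by more than 1.5 times in 6 comparisons. For WT at 3 h there were 60, against 2 with only the libraries compared and 38 with Benjamini-Yekutieli. For SpenKO at 24 h the 2 calls became 0 with the replicate block, only the libraries compared or Benjamini-Yekutieli. For SPOCmut minus SpenKO the 62 became 34 with Benjamini-Yekutieli. For SpenKO minus WT at 3 h the 7 became 4 on the logit scale, 2 with the replicate block or Benjamini-Yekutieli and 0 with only the libraries compared. For NPC relative to the median gene the 95 became 188 on the logit scale. Relative to the median gene, the 1 SpenKO call became 0 on the logit scale and with the replicate block. In lines other than SPOCmut replicates share only a number, with correlations of deviations from -0.107 in CIZ1 KO to 0.161 in WT. With CIZ1 KO numbers crossed, a pairing added after seeing the data, 217 genes were called at 24 h in place of 216, and 218 with the numbers as given. Of the 4 genes 2 were then called in place of 4, and relative to the median gene 2 in place of 4 (3 with the numbers as given). The replicate block with the numbers as given changed no other call of the 4 genes. With the mean absolute difference as likeness, 2 of 3 genes named for Utp14a were shared, and 3 of 3 for the others.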
